A study of Mus musculus with 102 samples.

Results

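The neurofilament genes *Nefl*, *Nefm* and *Nefh*, together with *Ina* (internexin) and *Prph* (peripherin), were described in 51 regions of the mouse central nervous system. These 5 genes were taken by symbol from the 18193 genes that a probe set named alone, and they had 11 of the 45037 probe sets, a probe set being a group of short array probes read as 1 value. For each gene, the probe set with the highest mean over 48 regions was used first, and the others served as a check. Every sample was total RNA of male Balb/c mice aged 7-8 weeks, kept in light and dark cycles or in constant darkness, taken as 0.5 mm punches every 4 h over 1 day and pooled over time points and animals. Each region had 2 arrays, 1 from each of 2 runs of the procedure, so a difference between regions is a difference between pools of animals. The groups were the retina, pituitary and pineal, which the study set apart, and, of the brain and cord, spinal cord (2 regions), pons (2), thalamus (6), mesencephalon (6), cerebellum (3), telencephalon (17) and hypothalamus (12). No region was treated, and all mice were of 1 strain and sex.

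Neurofilaments are the intermediate filaments of neurons. They fill large, often myelinated axons and set the axon's calibre, and with it the speed of conduction. *Nefl* encodes the light chain, on which the filament is built, and *Nefm* and *Nefh* encode the medium and heavy chains, whose long tails carry many phosphorylation sites and project from the filament. *Ina* encodes alpha-internexin, a partner subunit of central neurons that appears early in their development. *Prph* encodes peripherin, best known from peripheral neurons and from central neurons whose axons leave the brain and cord, such as motor neurons. *Nefl* and *Nefm* were adjacent among coding genes on chromosome 14, *Nefh* lay on chromosome 11, *Ina* on chromosome 19 and *Prph* on chromosome 15 (RefSeq, GRCm38.p6).

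The deposited values were log2 expression values, so a difference of 1 is a doubling of the signal. The lowest value was 3.88 and the highest 14.87, and the median of an array was 7.32 to 7.46. The 2 retina arrays went against their label in part, since the skeletal muscle list of 8 genes had medians of 12.64 and 12.44 in them and the anterior pituitary list of 7 genes had 10.81 and 10.49. The median eminence (ME), which adjoins the pituitary, had pituitary list medians of 8.11 and 8.17. In bulk punches, fewer neurons of a type and less RNA per neuron cannot be told apart, and this holds for every result given here.

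The 250 bases before the annotated start are shown for *Ina*, which was high in all 48 regions, and for *Prph*, which was high in few, since these were the 2 members matched in the RefSeq promoter table (build GRCm38.p6). Capitals mark TATAAA and GGGCGG on either strand.
Ina, chr19:47014431-47014680, plus strand: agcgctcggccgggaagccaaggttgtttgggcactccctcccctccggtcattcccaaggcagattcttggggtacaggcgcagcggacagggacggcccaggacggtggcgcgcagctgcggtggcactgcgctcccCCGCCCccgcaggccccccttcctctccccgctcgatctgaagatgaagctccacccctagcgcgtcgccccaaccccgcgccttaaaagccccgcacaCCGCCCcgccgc
Prph, chr15:99054924-99055173, plus strand: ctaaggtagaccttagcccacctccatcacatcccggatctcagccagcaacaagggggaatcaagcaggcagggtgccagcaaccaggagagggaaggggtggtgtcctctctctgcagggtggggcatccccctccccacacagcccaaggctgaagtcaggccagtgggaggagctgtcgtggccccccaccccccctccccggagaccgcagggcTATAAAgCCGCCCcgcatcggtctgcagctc
TATAAA had 1 match in the *Prph* window and 0 in the *Ina* window, and 12.4% of 32851 such windows held it. GGGCGG had 1 match in *Prph* and 2 in *Ina*, and 32.7% of the windows held it. The sequence CCAAT was in neither window and was in 33.8% of all windows. The windows held 65.2% G and C in *Prph* and 70.8% in *Ina*, against a median of 52.4% over all windows. No 2 of these motifs overlapped, and a match is a description of the letters only.

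The 3 neurofilament genes and *Ina* were bright nearly everywhere and differed widely between regions. The spinal cord, pons, cerebellar nucleus and ventral thalamus lay above the 48-region mean for all 4 genes, and the median eminence, the arcuate nucleus and the medial caudate putamen lay below it for all 4. *Nefh* varied most, with an SD of its 48 regional means of 1.35 on the log2 scale, a spread above that of 99.5% of all probe sets. The SD was 1.23 for *Nefm*, 0.81 for *Nefl* and 0.55 for *Ina*. The spread between the 2 arrays of a region was far smaller, and the 95% confidence interval of a difference between 2 regions reached 0.33 to either side for *Nefh*, 0.36 for *Nefm*, 0.25 for *Nefl* and 0.28 for *Ina*. All 11 probe sets differed among the 48 regions (limma F test, Benjamini-Hochberg adjusted p at most 0.0125), as did 91.1% of all probe sets.

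**Figure D1:**
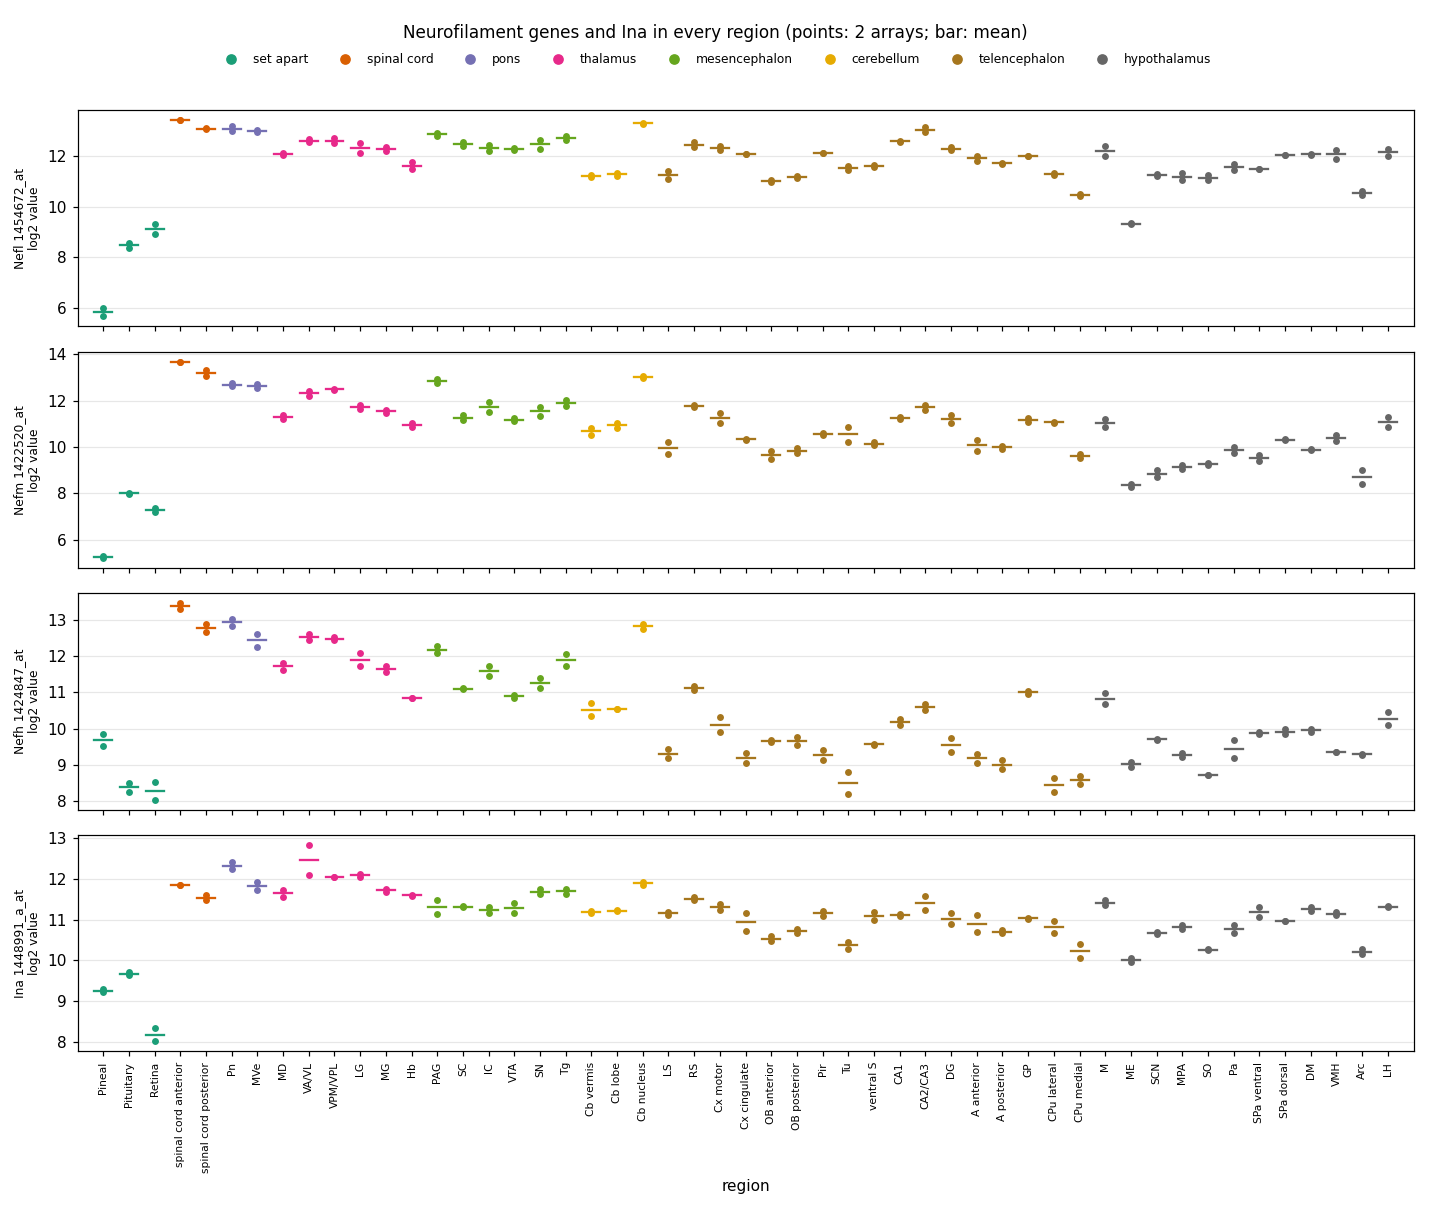
Log2 values of Nefl, Nefm, Nefh and Ina in 51 regions, coloured by division, with the vertical axis in log2 units; points are the 2 arrays of a region and bars their mean. The spinal cord, pons and cerebellar nucleus lie near the top for the 3 neurofilament genes, and the pineal lies at 5.82 for Nefl but at 9.69 for Nefh.

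*Nefl*, the light chain, had 13.45 and 13.44 in the anterior spinal cord, the highest region. The cerebellar nucleus (Cb nucleus) followed with 13.32 and 13.30, and the posterior spinal cord with 13.12 and 13.10. CA2/CA3 of the hippocampus, at 12.97 and 13.17, was the highest region of the telencephalon. The lowest region was ME, at 9.36 and 9.30, and the next was the medial caudate putamen (CPu medial) at 10.45 and 10.51, so that both ME arrays lay below every other brain or cord array. Against the other 47 regions, *Nefl* was higher in 20 regions, lower in 18 and not past the threshold of 0.05 in 10. Over all probe sets and regions, 13.9% of such comparisons were higher and 14.7% lower, 28.7% in all. In the order of regional means, 45 of the 47 steps between neighbours were within 0.25, and the 2 larger ones lay between the anterior olfactory bulb and the arcuate nucleus (Arc) and between CPu medial and ME.

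*Nefm*, the medium chain, had 13.66 and 13.69 in the anterior spinal cord and 13.32 and 13.08 in the posterior spinal cord. Both regions exceeded Cb nucleus, at 13.07 and 12.97, on every array. The periaqueductal gray (PAG) had 12.74 and 12.92, against 11.16 and 11.36 in the neighbouring superior colliculus. At the low end were ME with 8.39 and 8.29 and Arc with 8.41 and 8.99, and 10 of the 12 hypothalamic regions were lower. *Nefm* was higher in 19 regions, lower in 20 and not past the threshold in 9. The 2 parts of the caudate putamen stood apart, with 11.09 and 11.03 in CPu lateral and 9.68 and 9.54 in CPu medial, a pair that was chosen after its values were seen and was not tested.

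*Nefh*, the heavy chain, had 13.45 and 13.30 in the anterior spinal cord. The pontine nucleus (Pn) had 12.83 and 13.03, Cb nucleus 12.88 and 12.75, and the posterior spinal cord 12.89 and 12.66, and these 3 overlapped one another. The ventral thalamus followed, with 12.61 and 12.43 in VA/VL and 12.53 and 12.43 in VPM/VPL. The lowest regions were CPu lateral with 8.64 and 8.25, the olfactory tubercle (Tu) with 8.19 and 8.80, and CPu medial with 8.70 and 8.48. *Nefh* was higher in 20 regions and lower in 24, and 4 did not pass, the fewest among the members. Of the 17 telencephalic regions, only the retrosplenial cortex (RS) and the globus pallidus (GP) were higher, and 14 were lower.

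*Ina* had its highest mean outside the cord. VA/VL had 12.84 and 12.09, which lay further apart than those of the other 47 regions, Pn 12.24 and 12.41, and the lateral geniculate body (LG) 12.06 and 12.12. The anterior spinal cord, at 11.85 and 11.86, was in the sixth place. The lowest values were again those of ME, 10.05 and 9.95, and no step between neighbours in the order exceeded 0.28. *Ina* was higher in 14 regions, lower in 14 and not past the threshold in 20. All 6 thalamic regions were higher, as they were for *Nefh*. With another *Ina* probe set, Pn was the highest region.

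Regions were then compared by division of the neuraxis, each division against the regions of the other divisions. The SE and p of such a difference rest on the spread between the arrays of a region. They leave out the spread among the regions of a division. In the spinal cord, *Nefm* had 13.08 to 13.69 on its 4 arrays with a median of 13.49, and these arrays lay above all 92 others. *Nefh* had 12.66 to 13.45 with a median of 13.09. *Nefl* had 13.10 to 13.45, and *Ina* had 11.47 to 11.86, below the highest arrays of the thalamus. The differences from the other divisions were 2.69 (SE 0.08) for *Nefh*, 2.63 (SE 0.09) for *Nefm*, 1.34 (SE 0.06) for *Nefl* and 0.51 (SE 0.07) for *Ina*, each with a limma adjusted p of at most 3.57e-08. Of all probe sets, 18.2% were higher in the spinal cord. The second *Nefl* probe set gave a larger difference of 1.97 (SE 0.06).

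The pons, with Pn and the medial vestibular nucleus (MVe), was next. The differences there were 2.27 (SE 0.08) for *Nefh*, 1.81 (SE 0.09) for *Nefm*, 1.11 (SE 0.06) for *Nefl* and 0.91 (SE 0.07) for *Ina*, and 18.9% of probe sets were higher. In the thalamus, which relays sensory and motor signals to the cortex, *Nefh* was higher by 1.54 (SE 0.05), *Nefm* by 0.91 (SE 0.06), *Ina* by 0.82 (SE 0.04) and *Nefl* by 0.32 (SE 0.04), with 19.3% of probe sets higher. In the mesencephalon the same 4 genes were higher by 1.12, 0.93, 0.25 and 0.62, with 16.9% of probe sets higher. All 4 genes rose in these 4 divisions, and the difference of *Nefh* was the highest of the 4 in each.

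In the hypothalamus, *Nefm* fell by 1.62 (SE 0.04), *Nefh* by 1.15 (SE 0.04), *Nefl* by 0.74 (SE 0.03) and *Ina* by 0.50 (SE 0.03), and 29.3% of probe sets were lower. In the telencephalon, *Nefh* fell by 1.42 (SE 0.04), *Nefm* by 0.50 (SE 0.04), *Ina* by 0.41 (SE 0.03) and *Nefl* by 0.25 (SE 0.03), with 30.1% of probe sets lower. The order of the 4 genes thus differed between these divisions. In the cerebellum, *Nefh* was higher by 0.84 (SE 0.07), *Nefm* by 0.67 (SE 0.08) and *Ina* by 0.24 (SE 0.06), with 24.4% of probe sets higher, while *Nefl* differed by -0.05 (SE 0.05, adjusted p 0.406) and its second probe set was higher by 0.22. Of the 3 cerebellar regions, Cb nucleus alone was past the threshold against the other 47 regions for *Nefm*, *Nefh* and *Ina*. *Nefl* had means of 13.31 in Cb nucleus, 11.23 in the vermis and 11.29 in the lobe, against 11.99 over the 48 regions. Its small division difference thus averaged regions above and below that mean. For *Nefh*, the SD of the 3 regional means was 1.32.

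**Figure D2:**
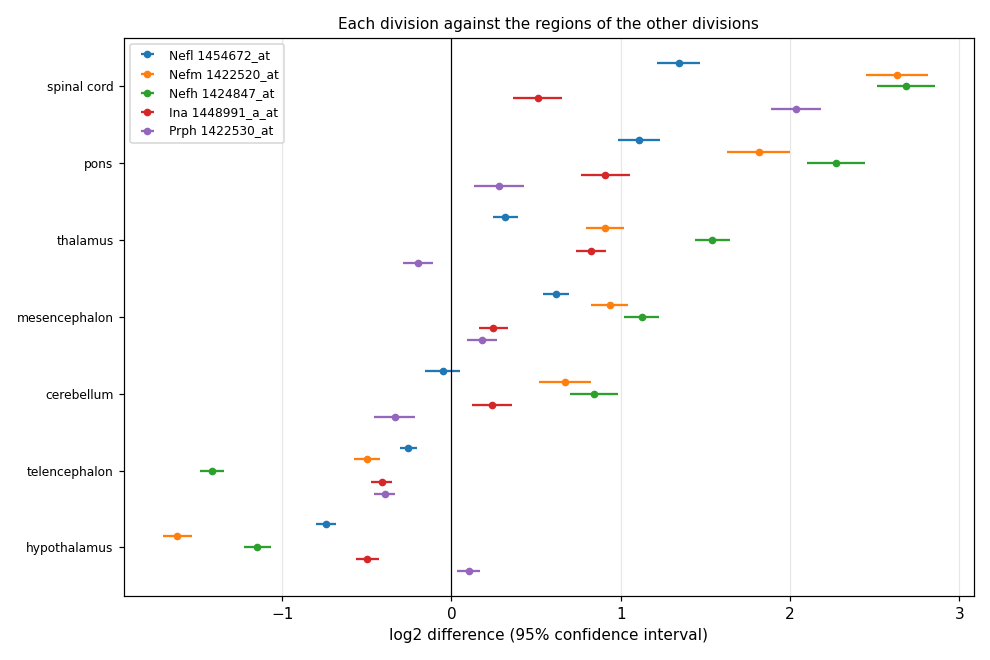
Log2 difference of each division from the regions of the other divisions for 5 probe sets, with 95% confidence intervals, not adjusted for the number of probe sets, on the horizontal axis. Nefh and Nefm lie at 2.69 and 2.63 in the spinal cord, and all of Nefl, Nefm, Nefh and Ina lie below 0 in the telencephalon and hypothalamus. The intervals leave out the spread among the regions of a division.

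Whether the other members changed as *Nefl* did was tested after subtracting the *Nefl* value of the same array from every probe set, so that a value here is a difference of differences. In the spinal cord, *Nefm* gained 1.29 (SE 0.07) and *Nefh* 1.34 (SE 0.08) over *Nefl*, and *Ina* differed by -0.83 (SE 0.09). When the other *Nefl* probe set was subtracted, a choice made after the data were seen, the values in the cord were 0.66 for *Nefm*, 0.71 for *Nefh* and -1.46 for *Ina*, and that of *Nefh* in the hypothalamus was -0.21, all past the threshold. The first *Nefl* probe set itself then differed by -0.63 (SE 0.06) in the cord and 0.19 (SE 0.03) in the hypothalamus, both past the threshold. In the thalamus (0.06) and telencephalon (-0.0044) it did not pass. A call in this test therefore cannot by itself separate a change of the gene from the response of a probe set. With the first *Nefl* probe set, only 0.469% of probe sets were higher in the cord, and 99% were lower. In the thalamus *Nefh* gained 1.22 (SE 0.05), *Nefm* 0.59 (SE 0.04) and *Ina* 0.50 (SE 0.05), with 3.81% of probe sets higher. In the hypothalamus *Nefm* differed from *Nefl* by -0.88 (SE 0.03) and *Nefh* by -0.40 (SE 0.03), with 1.06% of probe sets lower. In the telencephalon *Nefh* differed by -1.16 (SE 0.03) and *Nefm* by -0.25 (SE 0.03), with 7.7% of probe sets lower. Each of these with the first *Nefl* probe set had a limma adjusted p of at most 8.04e-11, and only the call of *Nefm* in the telencephalon was lost when regions of the same sampling period alone were compared (-0.04, adjusted p 0.281).

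Comparisons within related structures asked whether the genes separate regions that hold different projection neurons. Cb nucleus, whose neurons carry the output of the cerebellum, was set against the vermis and lobe of the cerebellar cortex. The nucleus and this cortex were sampled in different periods, so region and sampling period cannot be told apart here. *Nefh* had 12.88 and 12.75 in Cb nucleus, against 10.34 to 10.70 in the cortex, and rose by 2.28 (SE 0.14). *Nefm* rose by 2.21 (SE 0.16), *Nefl* by 2.05 (SE 0.11) and *Ina* by 0.70 (SE 0.12). The adjusted p was at most 4.14e-06, and 22.3% of probe sets were higher.

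GP and CPu are neighbouring parts of the basal ganglia. They too were sampled in different periods, so region and sampling period cannot be told apart. *Nefh* had 10.95 and 11.05 in GP, against 8.25 to 8.70 in CPu, and rose by 2.48 (SE 0.14, adjusted p 9.30e-21). *Nefl* rose by 1.12 (SE 0.11), *Nefm* by 0.83 (SE 0.16) and *Ina* by 0.51 (SE 0.12), and 13% of probe sets were higher. Another *Ina* probe set differed by 0.25 (adjusted p 0.191). For *Nefm* the arrays overlapped, as GP had 11.07 and 11.27 and CPu lateral 11.09 and 11.03. Relative to *Nefl*, *Nefh* gained 1.36 (SE 0.13, adjusted p 9.26e-15) in GP, where 0.515% of probe sets were higher, in a test added after the data were seen.

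The mammillary body (M) stood above the mean of the other 11 hypothalamic regions, by 1.45 (SE 0.13) for *Nefm*, 1.30 (SE 0.12) for *Nefh*, 0.85 (SE 0.09) for *Nefl* and 0.63 (SE 0.10) for *Ina*, where 6.91% of probe sets were higher. Those 11 regions came from several sampling periods. The lateral hypothalamus (LH), of the same period as M, had means of 11.08 for *Nefm*, 12.17 for *Nefl* and 11.32 for *Ina*. M had 11.03, 12.22 and 11.41, so the 2 regions were close for these genes. *Nefh* had 10.28 in LH and 10.83 in M. VPM/VPL, the somatosensory relay, exceeded the mediodorsal nucleus (MD) by 1.19 (SE 0.18) for *Nefm*, 0.77 (SE 0.17) for *Nefh* and 0.54 (SE 0.12) for *Nefl*, with 5.17% of probe sets higher, and *Ina* differed by 0.40 (SE 0.14, adjusted p 0.0603). Without VPM/VPL replicate 1, *Nefl* differed by 0.43 and was no longer called. The motor cortex exceeded the cingulate cortex by 0.92 (SE 0.18) for *Nefm* and 0.91 (SE 0.17) for *Nefh*, where only 0.571% of probe sets were higher. The differences of 0.26 for *Nefl* and 0.38 for *Ina* there were not past the threshold. The study reported that the replicates of these cortices were mis-clustered over all probe sets, although marker genes such as *Myl4* told them apart. Without motor cortex replicate 2, the differences were 0.70 for *Nefm* and 0.72 for *Nefh*, with adjusted p of 0.0994 and 0.0570.

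Smaller differences were found in the other sets. In those given here, the regions compared were sampled in different periods, so region and sampling period cannot be told apart. The supraoptic nucleus (SO) lay below the paraventricular nucleus (Pa), and *Nefh* fell by 0.73 (SE 0.17), *Nefm* by 0.60 (SE 0.18), *Ina* by 0.51 (SE 0.14) and *Nefl* by 0.44 (SE 0.12), with 15.8% of probe sets lower. Each of these 4 calls was lost without Pa replicate 2, those of *Nefl* and *Ina* also after cyclic loess normalization (-0.24 and -0.33), and another *Ina* probe set differed by 0.019. The dentate gyrus (DG) lay below the mean of CA1 and CA2/CA3 for *Nefh* by 0.85 (SE 0.14) and for *Nefl* by 0.54 (SE 0.11). In that comparison 15.3% of probe sets were lower. The second *Nefl* probe set differed there by -0.21 and did not pass, with means of 12.41 in DG, 12.23 in CA1 and 13.01 in CA2/CA3. *Nefm* had means of 11.21 in DG, 11.26 in CA1 and 11.72 in CA2/CA3, and *Ina* had 11.03, 11.12 and 11.41. Between the substantia nigra (SN) and the ventral tegmental area (VTA), 2 dopaminergic fields, *Ina* was higher in SN by 0.40 (SE 0.14, adjusted p 0.0347), where 9.36% of probe sets were higher, but another *Ina* probe set differed by 0.0034 and the call was lost without VTA replicate 1, SN replicate 1 or SN replicate 2. The differences there of *Nefl*, *Nefm* and *Nefh* were 0.18, 0.36 and 0.36 and did not pass, although the second *Nefl* probe set did, at 0.51 (adjusted p 0.00197), as did *Nefh* after cyclic loess normalization, at 0.41 (adjusted p 0.0447).

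**Figure D3:**
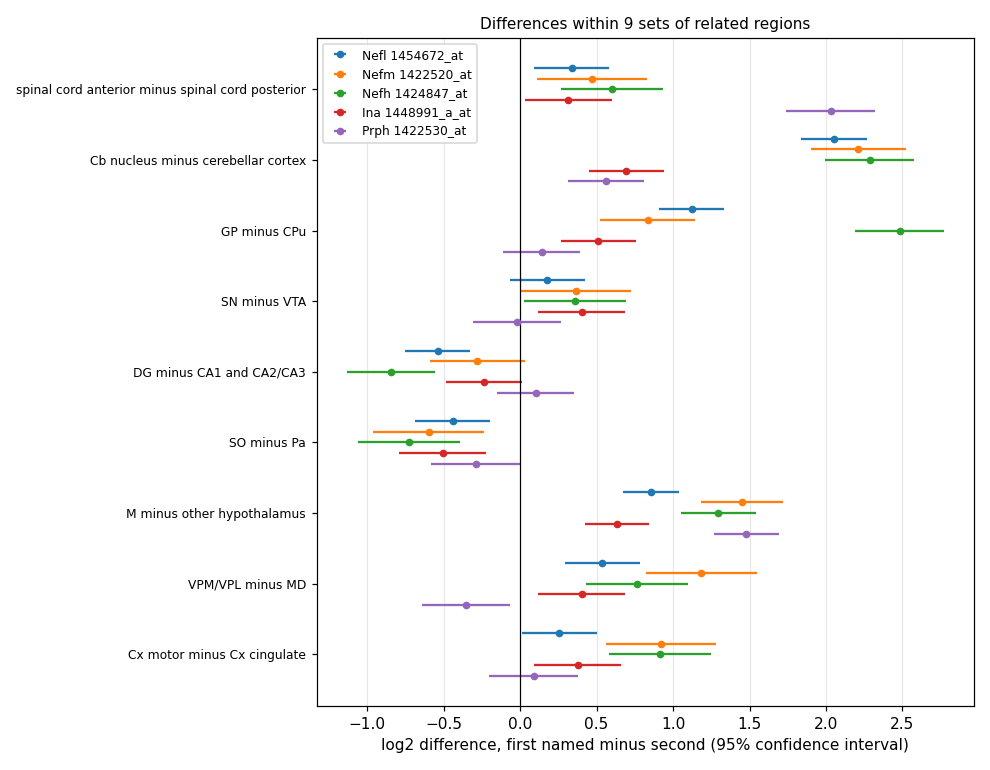
Log2 difference between the first and the second named region or regions of 9 sets, with 95% confidence intervals, not adjusted for the number of probe sets, on the horizontal axis, for 5 probe sets. Nefh lies at 2.48 for GP minus CPu, and Prph 1422530_at lies at 2.03 for the anterior minus the posterior spinal cord.

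*Prph* gave results that depended on the probe set. The probe set with the highest mean, 1449796_at, ran only from 7.22 to 7.80 over the 48 regions, an SD of 0.13, below that of most probe sets. Its values in the anterior spinal cord were 7.57 and 7.45, against 7.82 and 7.51 in the posterior spinal cord, and these overlapped. It was higher in 1 region and lower in 4. The probe set 1422530_at, the only one of the 4 that the array annotation paired with an accession, ran from 5.98 to 9.58, and its values are given from here on. It correlated with 1449796_at at r = 0.03 over the 48 regional means.

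With 1422530_at, *Prph* had 9.54 and 9.62 in the anterior spinal cord, above every other array. The dorsomedial hypothalamic nucleus (DM) had 8.05 and 8.16, PAG 8.12 and 7.98, M 8.17 and 7.91, the posterior spinal cord 7.71 and 7.38, and MVe 7.01 and 7.38. The remaining 42 regions had means from 5.98 to 6.95. With this probe set, the highest 6 regions thus lay in the cord, brainstem and hypothalamus. RS, at 6.75 and 7.14, and the ventral subiculum, at 6.99 and 6.73, both of the telencephalon, were also called higher. The differences from the other 47 regions were 3.03 (SE 0.10) in the anterior spinal cord, 1.53 in DM, 1.48 in PAG, 1.46 in M, 0.96 in the posterior spinal cord and 0.60 in MVe, all with a limma adjusted p of at most 5.84e-06. In all, 8 regions were higher, 17 lower and 23 not past the threshold, and 10 were lower without replicate 1 of each region and 9 without replicate 2. The other *Prph* probe sets, 1449796_at, 1420256_x_at and 1449797_x_at, did not share this order. In them DM took place 44, 47 and 26 of the 48, PAG 28, 12 and 40, and M 41, 29 and 21. The anterior spinal cord took place 33, 1 and 44.

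By division, *Prph* was higher in the spinal cord by 2.04 (SE 0.07), in the pons by 0.28 (SE 0.07), in the mesencephalon by 0.18 (SE 0.04) and in the hypothalamus by 0.10 (SE 0.03). Of all probe sets, 18.2%, 18.9%, 16.9% and 29.2% were higher in these divisions. In the hypothalamus, DM and M had means of 8.10 and 8.04, and the next region had 6.69. In the mesencephalon, PAG had a mean of 8.05, and the next region had 6.82. *Prph* fell by 0.39 (SE 0.03) in the telencephalon, where 30.1% of probe sets were lower. It fell by 0.34 (SE 0.06) in the cerebellum, where 30.2% were lower, and by 0.20 (SE 0.04) in the thalamus, where 23% were lower. With this probe set, the spinal cord thus differed far more than any other division. The means of its anterior and posterior parts were 9.58 and 7.55. In the cord, 1449796_at differed by 0.03 (limma adjusted p 0.787) and 1449797_x_at by -0.11 (adjusted p 0.187). The last probe set, 1420256_x_at, was higher there by 0.33 (adjusted p 4.43e-06). With 1422530_at and regions of the same sampling period, the pons differed by -0.02 and the mesencephalon by 0.04, and neither passed.

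The 2 parts of the cord separated *Prph* from the other members. It was higher in the anterior than the posterior cord by 2.03 (SE 0.14, adjusted p 1.23e-15), where 0.784% of probe sets were higher. *Nefh* differed by 0.60 (SE 0.17, adjusted p 0.0418), *Nefm* by 0.47 (SE 0.18, adjusted p 0.214), *Nefl* by 0.34 (SE 0.12, adjusted p 0.180) and *Ina* by 0.32 (SE 0.14, adjusted p 0.325). The call for *Nefh* was lost when any 1 of the 4 arrays was left out, with adjusted p between 0.082 and 0.282. In a fit of the 4 cord arrays with replicate as a block, added after the data were seen, *Nefm* passed at the same 0.47 (adjusted p 0.0252). Relative to *Nefl*, *Prph* gained 1.69 (SE 0.21, adjusted p 4.64e-08) in a test added after the data were seen, where 0.133% of probe sets were higher. In the same test 1449796_at fell by 0.50 (SE 0.17, adjusted p 0.0318), where 30.5% of probe sets were lower, so the 2 *Prph* probe sets differed from *Nefl* in opposite directions.

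Markers of cholinergic motor neurons moved in the same comparison. Of 8 measured genes, 6 were higher in the anterior cord and 0 lower, with a median difference of 1.14, beside -0.02 over all probe sets, of which 0.784% were higher and 0.908% lower. The largest were *Calcb*, a calcitonin gene-related peptide, by 2.52, *Chodl*, a marker of fast motor neurons, by 2.07, *Slc18a3*, the vesicular acetylcholine transporter, by 1.97, and *Slc5a7*, the choline transporter, by 1.62. The list's median level was 8.71 and 8.75 in the anterior cord, against 7.12 and 7.40 in the posterior cord. The probe set of *Chat*, the enzyme that makes acetylcholine, differed by -0.05 and did not pass, and this gene was named after its value was seen. The median was 7.78 and 7.88 in PAG, but 6.52 and 6.67 in DM and 6.77 and 6.56 in M, and the part of these cells in the *Prph* values was not tested.

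**Figure D4:**
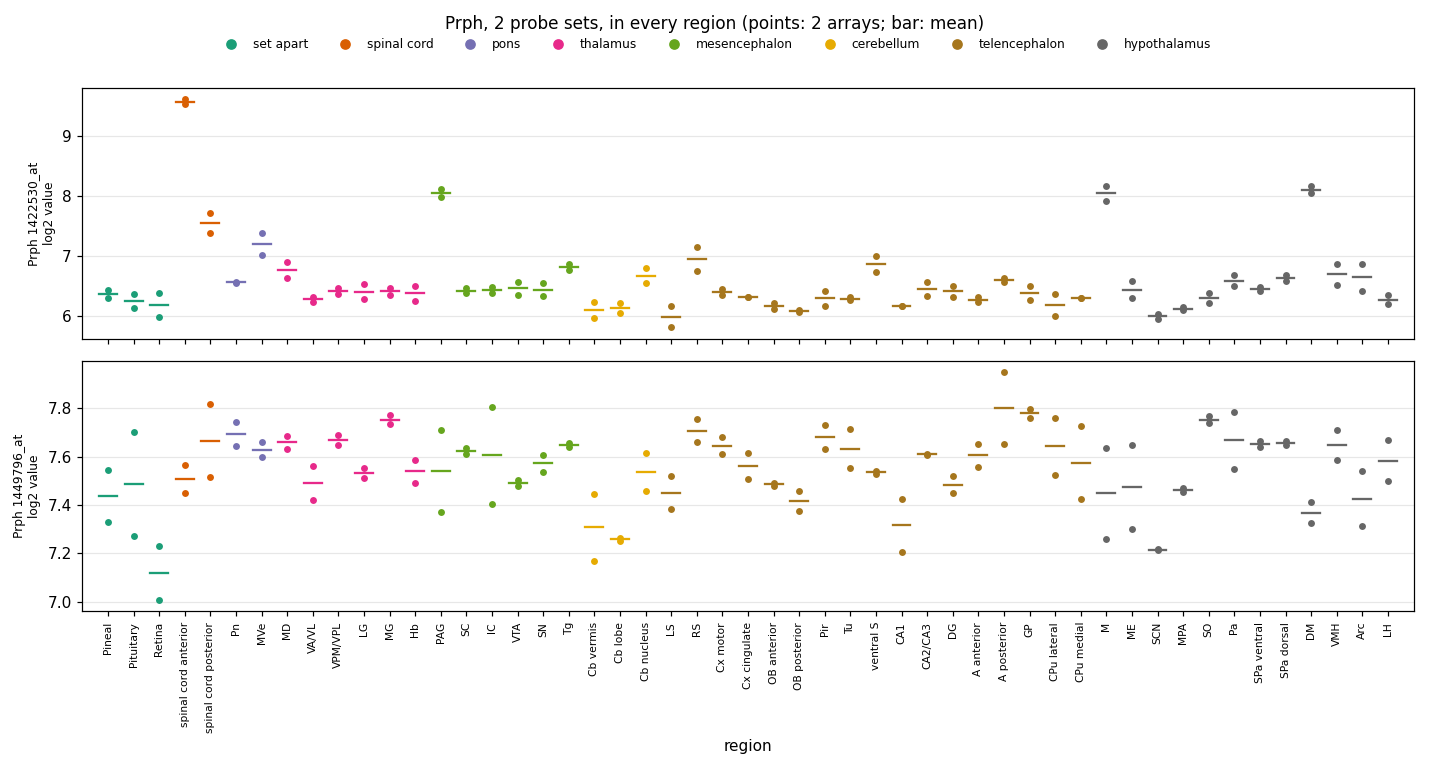
Log2 values of 2 Prph probe sets in 51 regions, coloured by division; points are the 2 arrays of a region and bars their mean, and the vertical axes differ in scale. With 1422530_at the anterior spinal cord lies at 9.58, above DM at 8.10, whereas 1449796_at stays between 7.22 and 7.80 in the 48 regions.

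Over the 48 regional means, *Nefl* and *Nefm* correlated at r = 0.88, *Nefm* and *Nefh* at 0.87, *Nefh* and *Ina* at 0.86, *Nefm* and *Ina* at 0.82, *Nefl* and *Ina* at 0.80 and *Nefl* and *Nefh* at 0.76. *Prph* correlated with these 4 at 0.29 to 0.46. These are descriptions over regions that share arrays and their normalization. The genes most like *Nefh* were *Eif5a2* (r = 0.95), *Vamp1* (0.95), *Ublcp1* (0.94), *Iars* (0.93) and *Nars* (0.93), and the least like were *Zmynd11* (-0.85) and *Dhx40* (-0.85). *Scn1a*, a sodium channel of fast-firing neurons, was most like *Nefm* (0.90), followed by *Rell2*, *Entpd7*, *Clgn* and *Luzp1* (0.88 to 0.89), with *Fbxo6* and *2410002F23Rik* the least like (both -0.83).

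*Uchl5* was most like *Nefl* (0.84), followed by *Gars*, *Sult4a1*, *Vamp1* and *Rell2* (all 0.80), with *Sin3a* (-0.84) and *Zbtb6* (-0.80) the least like. *Cend1* (0.88), *Cables2*, *Eif5a2*, *Gars* and *Scn1a* were most like *Ina*, with *Dhx40* and *Nme7* (both -0.82) the least like. *Kcnj14*, a potassium channel, was most like *Prph* (0.79), followed by *Calcb* (0.74), *6720468P15Rik* (0.72), *Skap1* (0.69) and *Carlr* (0.68), with *Miip* (-0.58) and *Virma* (-0.57) the least like. The order is sensitive to the measure, as 1 to 5 of each 5 were kept with rank correlation, linear values or a single run. For *Prph*, only 1 of the 5 was kept with rank correlation, which was 0.45 for *Kcnj14* and 0.40 for *Carlr*.

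Genes of the node of Ranvier and of fast-firing neurons moved with the neurofilament genes. In the spinal cord 10 of 12 were higher and 1 lower, with a median difference of 0.80, beside -0.02 over all probe sets, of which 18.2% were higher and 22.1% lower. The largest were *Scn4b*, a sodium channel subunit, by 2.26, *Pvalb*, which encodes parvalbumin, by 1.83, *Kcna1*, a potassium channel of the axon, by 1.62, and *Scn1a* by 1.38. In the hypothalamus all 12 were lower, with a median of -1.12 and *Pvalb* at -2.57, and in the thalamus and the pons 10 of 12 were higher, with medians of 0.52 and 0.68. Of all probe sets, 29.3% were lower in the hypothalamus, and 19.3% and 18.9% were higher in the thalamus and the pons. The list's level correlated with *Nefm* at 0.86, *Ina* at 0.76, *Nefl* at 0.73 and *Nefh* at 0.71 over the 48 regions, and with *Prph* at 0.19.

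Of 13 genes of axonal microtubules, 9 were higher in the spinal cord and 0 lower, with a median of 0.31, among them *Map1b* by 0.91 and *Tubb3* by 0.61. Of 13 genes for proteins that carry, modify or tether neurofilaments, 8 were higher and 1 lower there, with a median of 0.20. *Kif5b*, a kinesin heavy chain, was higher by 0.93 and *Dst*, a linker of filaments, by 0.73, while *Cdk5r1*, which encodes an activator of the kinase Cdk5, differed by -0.95. Of 13 other intermediate filament genes, 4 were higher in the cord, among them *Gfap* of astrocytes by 2.32 and *Synm* by 1.15, and 2 were lower, beside 18.2% of all probe sets higher and 22.1% lower.

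Markers of other cells also moved with the divisions, and the oligodendrocyte and general neuron lists are described here. Genes of the astrocyte, microglia and endothelial lists were past the threshold as well, for example in the pons. All 12 oligodendrocyte genes were higher in the spinal cord (median 1.86) and in the thalamus (1.00), 11 of 12 were higher in the pons (0.68), and in the telencephalon all 12 were lower (-1.05). Of all probe sets, 18.2%, 19.3% and 18.9% were higher in the first 3 of these divisions, and 30.1% were lower in the telencephalon. The list's level correlated with *Nefh* at 0.73, *Nefm* at 0.60, *Ina* at 0.57 and *Nefl* at 0.49. The general neuron list had 5 of 10 genes higher and 3 lower in the spinal cord, where 18.2% of all probe sets were higher and 22.1% lower. It had 3 higher and 7 lower in the hypothalamus (median -0.47), where 29.2% of all probe sets were higher and 29.3% lower. Their part in the neurofilament values was not tested.

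Outside the brain and cord, all 4 genes were lower. In the pineal, *Nefl* had 5.65 and 5.98 and *Nefm* 5.20 and 5.30, below every array of the 48 regions, where the lowest were 9.30 for *Nefl* and 8.29 for *Nefm*. *Nefh*, in contrast, had 9.85 and 9.53 in the pineal, above the mean of 18 of the 48 regions. The differences from the 48 regions were -6.18 (SE 0.09) for *Nefl*, -5.66 (SE 0.13) for *Nefm*, -1.96 (SE 0.10) for *Ina* and -0.81 (SE 0.12) for *Nefh*, with an adjusted p of at most 7.31e-08, and 23.1% of probe sets were lower. In a test chosen after these values were seen, *Nefh* differed from *Nefl* by 5.37 (SE 0.11), *Ina* by 4.22 (SE 0.13) and *Nefm* by 0.51 (SE 0.11), but 100% of probe sets, after rounding, were higher in that comparison. The second *Nefl* probe set itself differed from the first by 0.48 (SE 0.10) in that test. Only 1 *Nefh* probe set was measured, so no second probe set bears on the *Nefh* value.

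In the pituitary, *Nefl* had 8.58 and 8.37, *Nefm* 8.01 and 7.98, *Nefh* 8.52 and 8.27 and *Ina* 9.72 and 9.63. Their differences from the 48 regions were -3.51, -2.92, -2.11 and -1.53, where 22.9% of probe sets were lower. In the retina arrays the differences were -2.86, -3.65, -2.21 and -3.03, where 41.1% were lower, and these arrays carried the muscle and pituitary transcripts given above. The general neuron list had 10 of 10 genes lower in the retina arrays (median -3.05) and in the pituitary (-1.99), and 8 of 10 lower in the pineal (-3.47). *Prph* differed by -0.44 in the retina arrays, -0.36 in the pituitary and -0.25 in the pineal. These calls were lost without retina replicate 1, without pituitary replicate 1 and without either pineal array, with adjusted p of 0.0885 to 0.367.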

How the data were processed

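The deposited values were log2 expression values of 102 Affymetrix mouse genome arrays, normalized together by RMA by the authors, per the labels and the study's methods; its version was not given in the sources used here. The number of arrays limits the precision. Control probe sets (64) were left out and 45037 were tested. Genes were named from the platform annotation.

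Regions were compared with limma 3.58.1 (R 4.3.3), with 1 coefficient per region over 96 arrays of 48 regions (48 residual degrees of freedom), or 102 arrays for the retina, pituitary and pineal, p-values adjusted by Benjamini-Hochberg across the whole table, and a two-sided threshold of 0.05. The fit was tested on simulated data. Lists had 1 probe set per gene, 145 of 153 genes being measured, and were described by counts and medians. Named genes were the members, for each the 5 most and 2 least like by Pearson's r, and at most 5 of a list by size of difference. Members and lists were chosen with earlier results of these data known. The second *Prph* probe set, the subtraction of the other *Nefl* probe set, and the subtraction of *Nefl* in region pairs, retina, pituitary and pineal were added after the data were seen.

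By the study's sample table, and not the labels, same-numbered arrays of 3 of the region pairs were sampled on the same days. Deviations of same-numbered arrays correlated at 0.369 for the cord, 0.0991 for VPM/VPL and MD and 0.528 for the motor and cingulate cortex. Alternatives were a replicate block, cyclic loess, a robust fit with a variance trend, a highest regional mean of at least 7, regions of the same sampling period, other probe sets and leaving out each array. Figures were drawn with matplotlib 3.10.9.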

Additional observations from a re-analysis of the deposited data

How the results depend on the processing

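Of 2054 values of 182 results under alternative settings, 1958 kept their direction and their side of the threshold, and 1860 of 1928 did so apart from other probe sets. The replicate block changed no call: *Nefh* differed by 2.69 in the spinal cord and by 0.60 between its parts (adjusted p 0.0450) with it. The variance trend changed none either. The cause of the changes below was not tested, unless the setting uses fewer arrays.

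Cyclic loess ended the calls of SO minus Pa for *Nefl* (-0.24) and *Ina* (-0.33) and gave calls for *Nefh* in SN minus VTA (0.41) and for the brighter *Prph* probe set in the hypothalamus (-0.059) and pineal (-0.18). The filter on the highest regional mean gave a call for *Ina* in VPM/VPL minus MD (0.40). With the 4 arrays of a pair and the replicate block, chosen after seeing the data, calls appeared for *Nefm* between the parts of the cord (0.47) and, in VPM/VPL minus MD, for *Ina* (0.40) and *Prph* 1422530_at (-0.35).

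Among regions of the same sampling period, *Prph* 1422530_at lost its calls in the mesencephalon (0.038) and the pons (-0.017, reversed), the brighter *Prph* probe set gained one in the telencephalon (0.088), and relative to *Nefl* the calls of *Nefm* in the telencephalon (-0.039) and *Ina* in the pons (0.059, reversed) were lost. Against the other *Nefl* probe set, chosen after seeing the data, *Ina* in the cerebellum (0.024) and *Prph* 1422530_at in the spinal cord (0.065) lost their calls, and the brighter *Prph* probe set gained one in the cerebellum (-0.42).

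Other probe sets moved *Nefl* to 0.22 in the cerebellum (reversed), 0.51 in SN minus VTA (called) and -0.21 in DG minus CA1 and CA2/CA3 (not called). They moved *Ina* to 0.25 in GP minus CPu, 0.0034 in SN minus VTA and 0.019 in SO minus Pa (reversed), none called, and to 0.41 in VPM/VPL minus MD (called). For *Prph*, 1422530_at in place of 1449796_at gave -0.39 in the telencephalon, -0.20 in the thalamus, 0.10 in the hypothalamus, 2.03 between the parts of the cord and 1.48 in M, all reversed, and new calls of 0.18 in the mesencephalon, 0.28 in the pons, 2.04 in the spinal cord, -0.36 in the pituitary and -0.25 in the pineal. The remaining 2 probe sets gave 0.23 in the pons, -0.079 in the cerebellum, 0.33 in the spinal cord, 0.48 between its parts (reversed) and 0.17 and 0.079 in Cb nucleus minus cortex. Regions higher by the brighter *Prph* probe set numbered 1, against 2 with cyclic loess, the sampling period or either remaining probe set, 3 with the filter and 8 with 1422530_at. Regions lower numbered 4, against 1 with a remaining probe set and 17 with 1422530_at.

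Leaving out 1 array at a time ended or made these calls. *Nefh* ranged from 0.49 to 0.71 between the parts of the cord, -0.98 to -0.47 in SO minus Pa and 0.72 to 1.11 in motor minus cingulate cortex. *Nefm* ranged from -0.73 to -0.47 in SO minus Pa and 0.70 to 1.15 between the cortices. *Nefl* ranged from -0.56 to -0.32 in SO minus Pa and 0.43 to 0.65 in VPM/VPL minus MD. *Ina* ranged from 0.28 to 0.52 in SN minus VTA, -0.60 to -0.41 in SO minus Pa and 0.15 to 0.60 between the cortices. *Prph* 1422530_at ranged from 0.19 to 0.37 in the pons, -0.64 to -0.23 in the retina arrays, -0.49 to -0.24 in the pituitary and -0.31 to -0.19 in the pineal, and 9 to 10 regions were lower. The brighter *Prph* probe set ranged from 0.18 to 0.33 in Cb nucleus minus cortex and -0.29 to 0.14 in the pituitary, with 0 to 1 regions higher and 2 to 3 lower. With 2 arrays per region, the lone array left was taken to vary as the arrays of other regions.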
